A study of Caenorhabditis elegans with 8 samples.

Results

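The hedgehog-related and patched-related genes of Caenorhabditis elegans were followed in whole young adults of 2 genotypes on 2 bacterial foods. Members were the rows of the expression table named wrt, grd, grl, ptr or ptc with a number, 83 of 41560 rows. Of these, 57 were ligand-like (10 wrt, 16 grd and 31 grl) and 26 were patched-like (23 ptr and 3 ptc). The worms were the wild-type strain N2 or the daf-16 mutant strain daf-16(mgDf50). They were grown on agar plates with Escherichia coli BW25113 or with BW25113 lacking hns, which encodes the nucleoid protein H-NS, a silencer of bacterial transcription. Each of the 4 combinations had 2 libraries, called replicates 1 and 2. The labels do not say whether these came from separately grown worms, so p-values measure the spread between libraries, which may be technical. By its title, the series is about the activation of DAF-16 by such bacteria. DAF-16 is a FOXO factor held in check by insulin-like signals. The daf-16 mutation was present in the whole animal.

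In flies and vertebrates, secreted hedgehog proteins bind Patched, a membrane protein with a sterol-sensing domain, and thereby free Smoothened to act on GLI transcription factors. C. elegans has no clear hedgehog or Smoothened orthologue but has large families of secreted warthog (wrt), groundhog (grd) and ground-like (grl) proteins, and of Patched (ptc) and Patched-related (ptr) proteins. Many of them are made in the epidermis (hypodermis) and in other lining or support cells, and several are needed for moulting, cuticle formation and vesicle traffic. WRT-10 made in the hypodermis has been linked to oocyte quality in ageing worms, through PTC-1, PTR-2 and the GLI relative TRA-1. GRL-21 and PTR-24 have been linked to a control of fat and mitochondria by bacterial metabolites.

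Expression was given as FPKM, fragments scaled by transcript length and library size. Between 13191 and 14099 genes reached 1 FPKM in a library, and the steps between low values implied about 20300000 to 22400000 fragments per library. In every group replicate 1 had more genes above 0 than replicate 2. The mutated gene separated the genotypes. The daf-16 transcript stood between 69.9 and 77.4 FPKM in the 4 N2 libraries and between 15.8 and 19.2 FPKM in the 4 mutant libraries, or 4.12-fold less on BW25113 food (limma adjusted p = 0.000516). On hns food it was 4.34-fold less (limma adjusted p = 0.00032).

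Levels varied widely. Of the 83 members, 50 reached 1 FPKM in at least 2 of the 8 libraries and were tested, 29 of them ligand-like and 21 patched-like. Among those tested, grd-12, grd-16, grl-6 and ptr-3 reached 1 FPKM only in libraries on hns food. Counts of members higher on hns food include such genes, for which the filter favours that direction. The 33 members not tested stayed at or below 1.42 FPKM, the highest value of ptr-22. Among them grl-24 and grl-29 were listed at 0 in all 8 libraries, and 18 were above 0 in all 8. A gene listed at 0 may also be a failed estimate, so no fold is given against it. Whole animals were sequenced, so fewer cells of a type and less RNA per cell cannot be told apart.

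**Figure D1:**
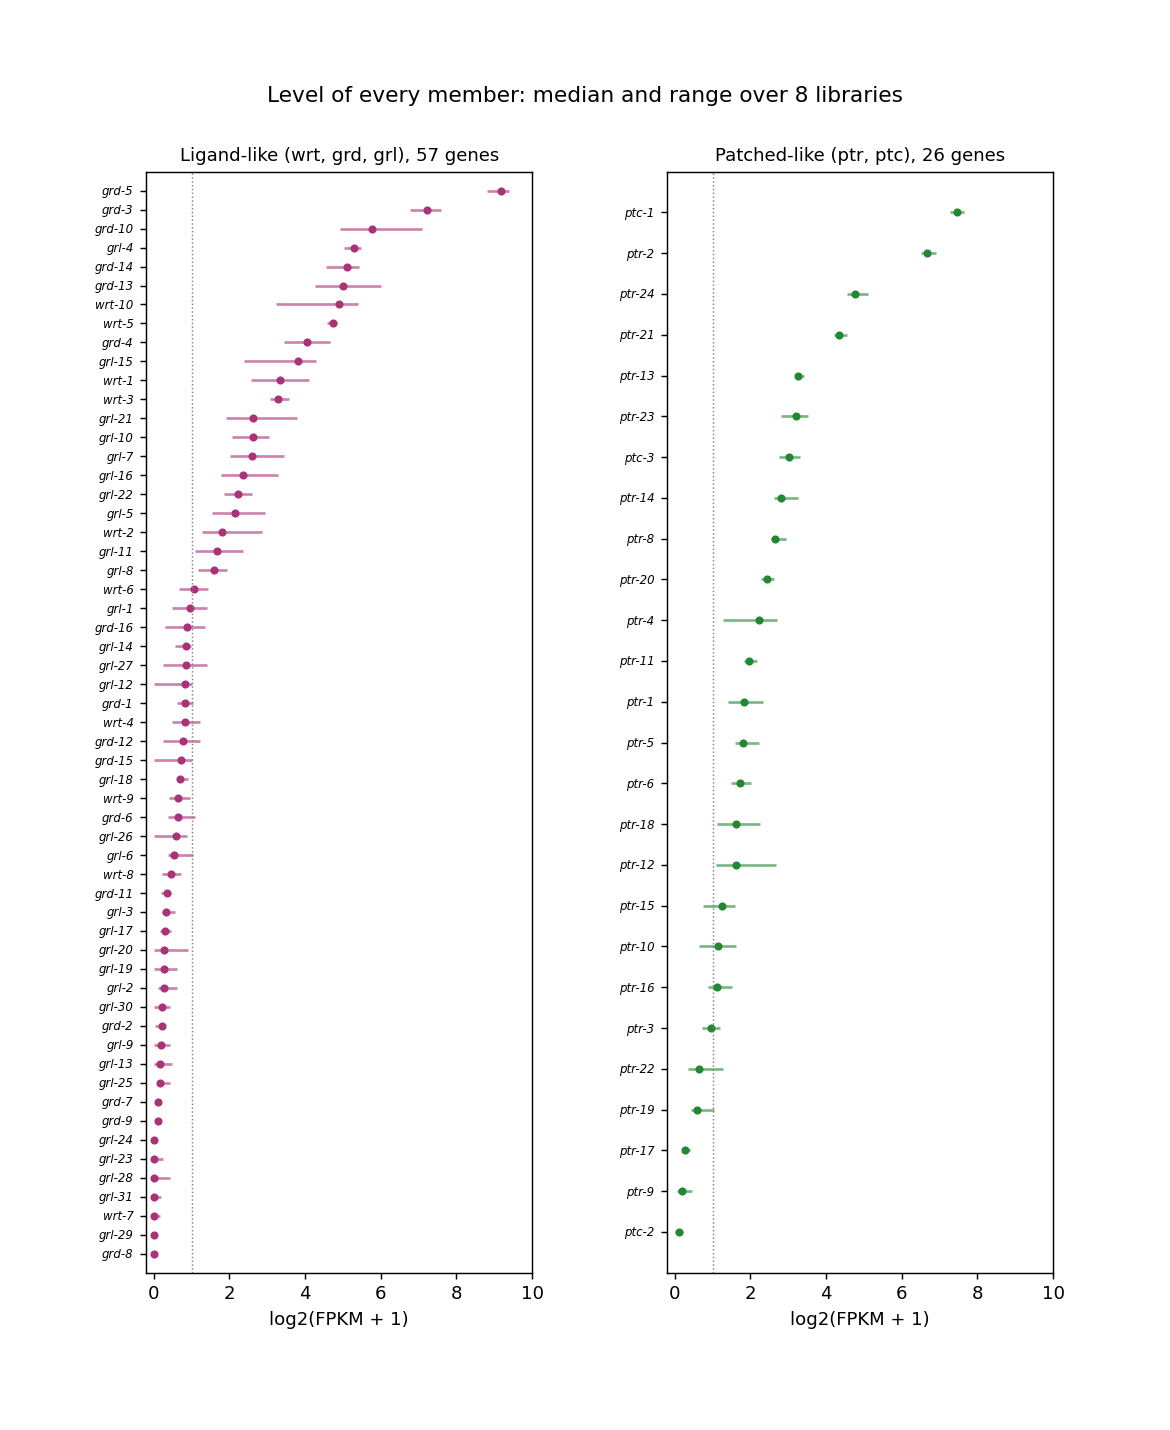
Level of each of the 83 members as log2(FPKM + 1), with the point at the median and the line from the lowest to the highest of the 8 libraries; the dotted line marks 1 FPKM. On the ligand-like side grd-5 stands far above the rest, and grd-3 comes next, with a range that overlaps that of grd-10. On the patched-like side ptc-1 and ptr-2 stand far above the rest.

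A few genes held most of the signal on each side. The groundhog gene grd-5 ranged from 445 to 664 FPKM over the 8 libraries, with a median of 573, and made up 44.0% to 61.6% of the summed ligand-like FPKM of a library. Its relative grd-3 ranged from 109 to 191 FPKM. Together they held 54.7% to 77.1%. The next ligand-like genes by mean level were grd-10 (29.4 to 134 FPKM), grl-4 (31.6 to 43.3), grd-14 (22.3 to 41.6), grd-13 (18.2 to 63.0), wrt-10 (8.3 to 41.2) and wrt-5 (23 to 27.5). The highest library of grd-5 and of grd-3 was less than 2 times the lowest, unlike those of wrt-10 and grd-10. In all, 18 ligand-like genes had a group mean of at least 5 FPKM.

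Of the patched-like genes, ptc-1, which is needed for cell division in the syncytial germline, ranged from 153 to 200 FPKM and made up 41.4% to 47.4% of the patched-like sum. The patched-related gene ptr-2 ranged from 90.9 to 120 FPKM, ptr-24 from 22.3 to 33.3 and ptr-21 from 17.5 to 22.4. The Patched homologue ptc-3, an essential gene, ranged from 5.8 to 9 FPKM. The remaining row named ptc, ptc-2, did not exceed 0.17 FPKM and matched no gene of the WBcel235 annotation by name. At 1 FPKM or more in every library were 17 of the 26 patched-like genes, ptc-2 not among them, and 21 of the 57 ligand-like genes.

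By name, 82 of the 83 members matched the WBcel235 annotation, all as protein-coding genes and without ptc-2. They lay on chromosomes V (32 genes), IV (13), X (12), II (10), I (9) and III (6). A further member was the direct neighbour of 12 of them. These were wrt-1 with wrt-10, grd-3 with grd-10 on one side and grd-13 on the other, grd-4 with grd-14, grl-8 with grl-9, and grl-30 between grl-29 and grl-31. Coding lengths of the ligand-like and patched-like genes overlapped, since grd-1 (1137 codons), grd-11 (977) and grd-2 (946) reached the lengths of ptr genes. The longest coding sequence had 102 to 1137 codons in grd genes (median 329), 103 to 774 in grl genes (median 212) and 176 to 593 in wrt genes, against 820 to 1003 in ptr genes and 1367 to 1408 in ptc-3 and ptc-1.

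The first comparison asked how wild-type worms on hns food differed from those on BW25113 food. The warthog genes wrt-10 and wrt-1 and the ground-like gene grl-15 rose 3- to 4-fold on hns food (limma adjusted p under 0.05). No member was called lower at this threshold. The most abundant ligand-like genes, grd-5 and grd-3, differed little. The tested ligand-like genes had a median log2 fold change of 0.75, and 25 of 29 lay above 0, beside a median of 0 and 49.1% above 0 over all 14564 genes tested. The 25 include grd-12, grd-16 and grl-6, which were tested only through libraries on hns food.

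The gene wrt-10 stood at 11.1 and 8.3 FPKM on BW25113 food, and on hns food it reached 40.7 and 27.5 FPKM. Both hns libraries exceeded both BW25113 libraries. The means of 9.71 ± 1.99 and 34.1 ± 9.33 FPKM (SD, n = 2) differed 3.51-fold. On the log2 scale this was 1.70 ± 0.25 (estimate ± SE, limma adjusted p = 0.0482).

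Its neighbour wrt-1, a warthog gene whose product also carries the autoprocessing (Hint) part of hedgehog proteins, stood at 4.89 and 5.02 FPKM on BW25113 food, against 16.2 and 14.8 FPKM on hns food. Replicates differed far less than the foods. The difference was 3.12-fold (log2 fold change 1.47 ± 0.19, limma adjusted p = 0.0352).

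The ground-like gene grl-15 stood at 4.79 and 4.18 FPKM on BW25113 food, against 14.9 and 18.5 FPKM on hns food, without overlap. The difference was 3.73-fold (1.69 ± 0.24, limma adjusted p = 0.0464). Its annotated exons share 27 bases with Y75B8A.19 on the opposite strand, a gene at 4.35 FPKM on BW25113 food and 5.09 FPKM on hns food. The authors' handling of strand is not given in the sources used here.

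These 3 calls compare with 0.645% of all genes tested that were called higher and 0.227% that were called lower. The calls lay close to the threshold. With 1 of the 8 libraries left out, the adjusted p ranged from 0.0348 to 0.191 for wrt-1, from 0.0735 to 0.247 for wrt-10 and from 0.0485 to 0.241 for grl-15. Without any single N2 library, or either mutant library on hns food, none of the 3 genes passed, and without either mutant library on BW25113 food wrt-1 and grl-15 still did. Fitting without a filter on low values, or with the 4 N2 libraries alone, left 0 members called by limma.

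Next in size, with groups that did not overlap but short of the threshold, were wrt-2, grl-7, grl-16 and grl-5. The warthog gene wrt-2 stood at 1.62 and 1.40 FPKM on BW25113 food and 6.26 and 5.10 FPKM on hns food, 3.77-fold apart (log2 fold change 1.41 ± 0.22, limma adjusted p = 0.0558). The ground-like gene grl-7 stood at 3.01 and 3.19 FPKM against 9.44 and 9.92 FPKM (1.38 ± 0.23, adjusted p = 0.0597). For both, the lower hns library lay well above the higher BW25113 library. The exons of wrt-2 share 43 bases with pccb-1 on the opposite strand, a gene that averaged 141 FPKM on BW25113 food and 139 FPKM on hns food.

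The ground-like gene grl-16 stood at 3.76 and 2.41 FPKM on BW25113 food and 7.93 and 8.72 FPKM on hns food (1.21 ± 0.28, limma adjusted p = 0.12). For grl-5 the values were 2.34 and 1.89 against 5.05 and 6.66 FPKM (1.13 ± 0.28, adjusted p = 0.14). Neither gene overlapped between foods. Also without overlap, grl-10 stood at 3.57 and 3.22 against 7.22 and 5.83 FPKM and grl-21 at 4.04 and 2.75 against 6.81 and 5.09 FPKM, with log2 fold changes of 0.77 ± 0.27 and 0.67 ± 0.44 (limma adjusted p = 0.265 and 0.46). The exons of grl-10 share 18 bases with the ribosomal protein gene rpl-39 on the opposite strand, which ranged from 54600 to 72700 FPKM. Both hns libraries lay above both BW25113 libraries in 6 of 7 tested wrt genes, 11 of 14 grl genes and 3 of 8 grd genes, beside 25.3% of all genes tested. Among these, grl-6, grd-12 and grd-16 were tested only through libraries on hns food.

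**Figure D2:**
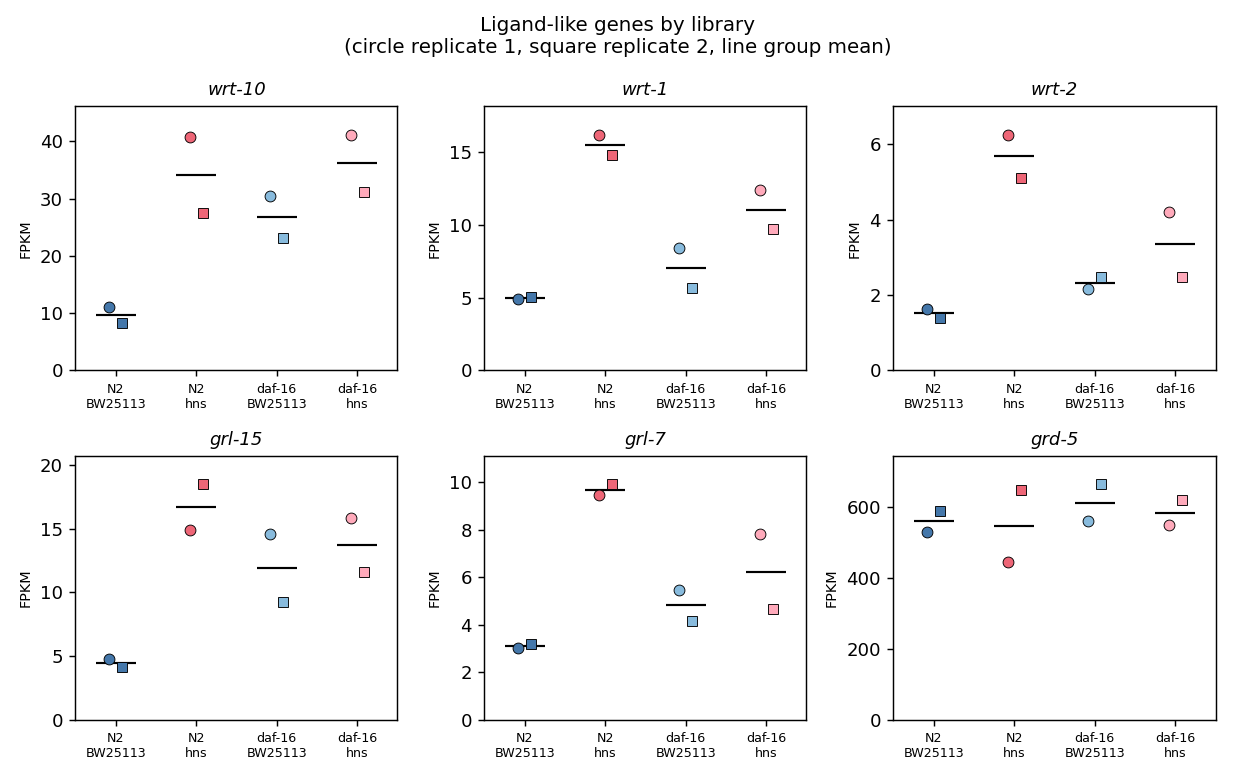
FPKM of 6 ligand-like genes in each library, by genotype and food, on axes that start at 0; circles are replicate 1, squares replicate 2 and lines group means. For wrt-10, wrt-1, wrt-2, grl-15 and grl-7 the N2 libraries on BW25113 food lie lowest of all 4 groups, whereas the abundant gene grd-5 overlaps between all groups.

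The groundhog family differed in its abundant members. The values of grd-5 were 529 and 588 FPKM on BW25113 food and 445 and 647 FPKM on hns food, overlapping, with a log2 fold change of -0.06 ± 0.19 (limma adjusted p = 0.88). Those of grd-3 were 133 and 144 against 109 and 151 FPKM (-0.11 ± 0.19, limma adjusted p = 0.762). Neither gene gave a direction that held when single libraries were left out. The genes on either side of grd-3 varied more. The seam-cell gene grd-10 stood at 82.2 and 29.4 FPKM on BW25113 food and 134 and 59.6 FPKM on hns food. Here the replicates of a group differed more than the foods (0.85 ± 0.53, limma adjusted p = 0.442).

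The gene grd-13 gave 37.6 and 19.1 FPKM against 63.0 and 37.9 FPKM, with the lower hns library just above the higher BW25113 library (0.84 ± 0.37, limma adjusted p = 0.342). In both foods replicate 1 of N2 exceeded replicate 2 by at least 1.5 times for grd-10, grd-13, grl-12 and ptr-12, 4 of 50 tested members beside 5.6% of all genes tested. Marker sums of N2 went both ways between replicates. Neuron markers stood higher in replicate 1, at 250 and 198 FPKM on BW25113 food and 353 and 230 on hns food. Glia markers did so at 23.1 and 18.7 and at 33.7 and 22.4 FPKM, and seam cell markers at 53.3 and 47.4 and at 66.9 and 59.6 FPKM. Moulting genes did so too. Summed hypodermis markers stood lower in replicate 1, at 1140 and 1340 and at 1430 and 2160 FPKM. The gene col-19 alone gave 864 and 1120 and then 665 and 1420 FPKM of these sums. Single hypodermis markers went both ways: dpy-2, dpy-3 and dpy-10 stood higher in replicate 1 on both foods, and dpy-13 and bli-2 lower. Summed embryo, germline, sperm and muscle markers also stood lower in replicate 1. The part of cell content in the members' values was not tested.

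For the other abundant ligand-like genes the estimates were small, but not all were precise. The log2 fold change was 0.33 ± 0.31 for grd-14, 0.06 ± 0.33 for grd-4, 0.21 ± 0.13 for grl-4, 0.01 ± 0.08 for wrt-5 and 0.28 ± 0.16 for wrt-3 (limma adjusted p of 0.407 to 0.966). Under quantile normalization the values for grd-4 and wrt-5 turned to -0.05 and -0.04. Of the bases of wrt-3, 41.1% are shared with a pseudogene on the same strand. The warthog gene wrt-5, which is needed in embryonic and larval development, held at 25 and 26 FPKM against 27.2 and 24.1 FPKM. Its error was the smallest of these genes, and its 95% interval ran from -0.19 to 0.21. The intervals of grd-14 and grd-4 were wider, from -0.41 to 1.08 and from -0.74 to 0.86. In grl-27 and grl-22 both hns libraries lay below both BW25113 libraries, at 0.525 and 0.18 against 0.892 and 1.21 FPKM for grl-27 and at 2.65 and 3.29 against 4.19 and 3.83 FPKM for grl-22.

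On the patched-like side 0 of 21 tested genes passed in N2 with limma, and the median log2 fold change was 0.30, with 17 above 0. At an unadjusted p under 0.05, 6 stood higher and 1 lower, beside 11.2% and 4.46% of all genes tested. In 15 of them both hns libraries exceeded both BW25113 libraries and in 4 both lay below, beside 25.3% and 28.9% of all genes tested. The largest difference was that of ptr-4, with 1.90 and 1.41 FPKM on BW25113 food and 5.09 and 4.26 FPKM on hns food, 2.83-fold apart (1.10 ± 0.27, limma adjusted p = 0.143). The ptr family includes several genes needed for moulting. The values of ptr-18 were 1.75 and 1.19 against 3.76 and 3.32 FPKM (0.89 ± 0.21, limma adjusted p = 0.13). The values of ptr-23 were 6.91 and 6.06 against 9.35 and 9.14 FPKM (0.45 ± 0.13, limma adjusted p = 0.182), and those of ptc-3 were 6.35 and 5.80 against 7.83 and 9 FPKM (0.41 ± 0.13, adjusted p = 0.22). All 4 genes were lowest in the N2 libraries on BW25113 food.

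The 4 patched-like genes that lay lower without overlap were ptc-1 (193 and 200 FPKM on BW25113 food, 171 and 178 on hns food), ptr-2 (113 and 120 against 98.6 and 103), ptr-24 (26.2 and 31 against 22.3 and 24.4) and ptr-13 (9 and 9.61 against 8.91 and 8.74). Their log2 fold changes were -0.17 ± 0.08, -0.21 ± 0.10, -0.28 ± 0.11 and -0.07 ± 0.09 (limma adjusted p = 0.341, 0.361, 0.301 and 0.699). All 20 germline and oocyte markers had log2 fold changes below 0 as well, between -0.21 and -0.11 (median -0.17), and 0 of them passed. Their summed level was 9240 and 9450 FPKM on BW25113 food and 8000 and 8770 FPKM on hns food. The part of germline content in the patched-like values was not tested.

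Around 0 were ptr-21 (0.01 ± 0.11) and ptr-8 (0.14 ± 0.12), while ptr-14 gave 0.32 ± 0.14 and ptr-12 0.37 ± 0.34 (limma adjusted p of 0.346 to 0.967). Under quantile normalization ptr-21 and ptr-8 turned to -0.11 and -0.12. The values of ptr-12 overlapped between the foods, at 3.23 and 2.00 against 5.44 and 2.31 FPKM.

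**Figure D3:**
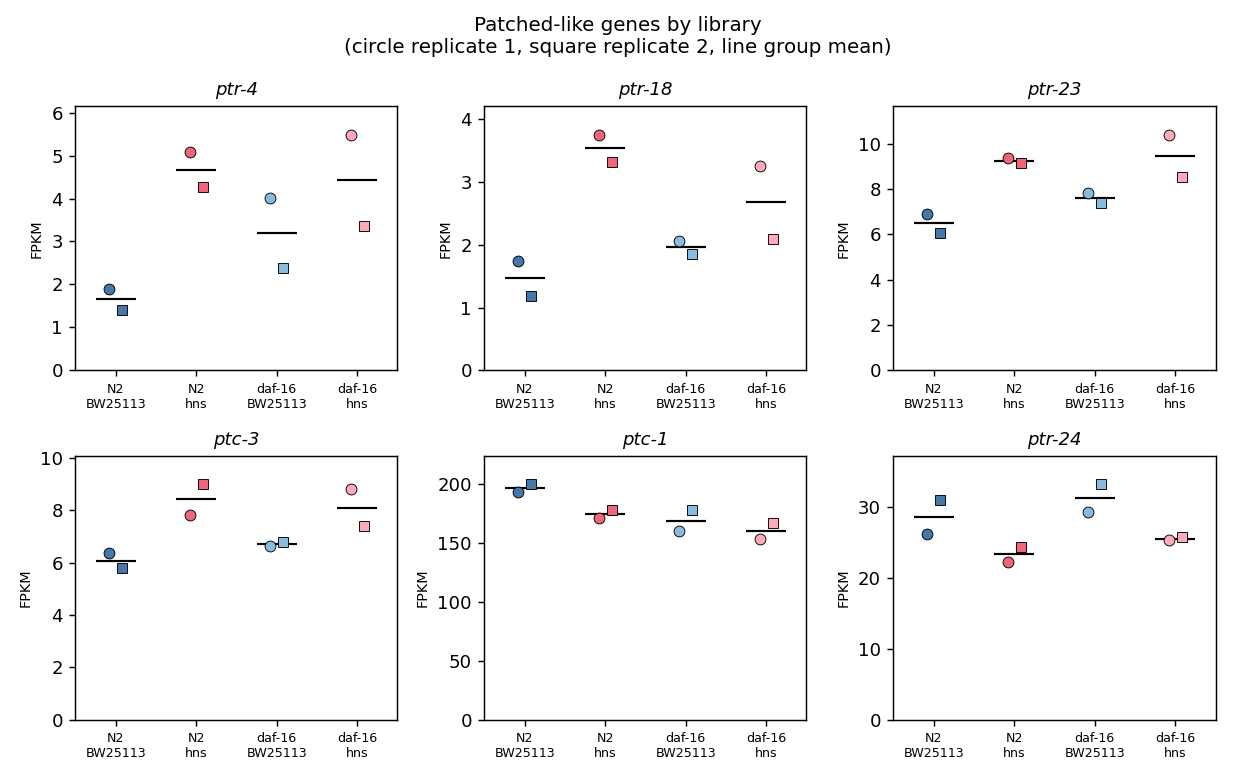
FPKM of 6 patched-like genes in each library, drawn as for the ligand-like genes. In N2 both hns libraries lie above both BW25113 libraries for ptr-4, ptr-18, ptr-23 and ptc-3 and below them for ptc-1 and ptr-24.

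Of 21 further genes around the pathway, 18 were tested and 1 was called higher on hns food in N2. This was hhat-1, named for the hedgehog acyltransferase that adds palmitate to hedgehog in other animals. It stood at 1.52 and 1.06 FPKM on BW25113 food and 5.76 and 4.43 FPKM on hns food, 3.94-fold higher (1.41 ± 0.20, limma adjusted p = 0.0464). Leaving out any 1 of the 8 libraries raised its adjusted p to between 0.0697 and 0.235. The genes qua-1 and hog-1, which encode proteins with the hedgehog autoprocessing domain, did not overlap between foods either. The values of qua-1 were 1.21 and 0.836 against 3.17 and 2.49 FPKM (0.92 ± 0.21, limma adjusted p = 0.114), and those of hog-1 were 1.80 and 2.18 against 4.27 and 3.76 FPKM (0.75 ± 0.20, adjusted p = 0.165).

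The release and response end of the pathway gave smaller differences. The Dispatched-like gene che-14 gave 0.20 ± 0.16 (-0.07 under quantile normalization) and the GLI relative tra-1, which also directs sex determination, gave 0.28 ± 0.16 (limma adjusted p = 0.526 and 0.416). The Patched-domain gene ptd-2 and daf-6, a Patched-related gene that shapes glial channels, were too low to be tested. Means on BW25113 and hns food were 0.175 and 0.305 FPKM for ptd-2 and 0.547 and 0.952 FPKM for daf-6. The list had a median of 0.19, with 13 of 18 above 0.

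Epidermal markers differed between the same libraries. Of 20 tested hypodermis and cuticle markers 6 were called higher on hns food in N2 (dpy-3, dpy-14, dpy-17, sqt-3, cut-2 and cut-3) and 0 lower. In all, 19 lay above 0 and the median was 1.06. Of 15 moulting and apical matrix genes 4 were called higher (mlt-11, noah-1, noah-2 and lpr-3), with a median of 1.00. The summed level of all 23 hypodermis markers in the table was 1140 and 1340 FPKM on BW25113 food and 1430 and 2160 on hns food, and that of the moulting genes 90.5 and 83.2 against 203 and 171 FPKM. Such a sum weighs the most abundant genes most, whereas the median gives each tested marker the same weight. No marker of either list was listed at 0 in any library.

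The 10 epidermal regulators had a median of 0.45 with 8 above 0 and 0 past the limma threshold. The nuclear receptor gene nhr-25 had the largest difference, at 3.69 and 2.94 FPKM on BW25113 food and 7.90 and 6.83 FPKM on hns food (0.96 ± 0.17, adjusted p = 0.0709), while nhr-23, a nuclear receptor gene of the moulting cycle, stood at 43.1 and 46.6 against 41.6 and 41.8 FPKM. Seam cell markers (median 0.38 over 6 genes), glia markers (0.27 over 7), neuron markers (0.29 over 8) and muscle markers (0.14 over 8) had 0 members past the threshold. Of 17 zygotic embryo genes 2 were called higher, ceh-43 and unc-120, with a list median of 0.40. Summed over the 20 embryo genes the level was 469 and 492 FPKM on BW25113 food and 437 and 503 on hns food, but pal-1 alone gave 354 and 378 and then 298 and 353 FPKM of these sums. The part of epidermal, embryonic or other cell content in the members' values was not tested.

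**Figure D4:**
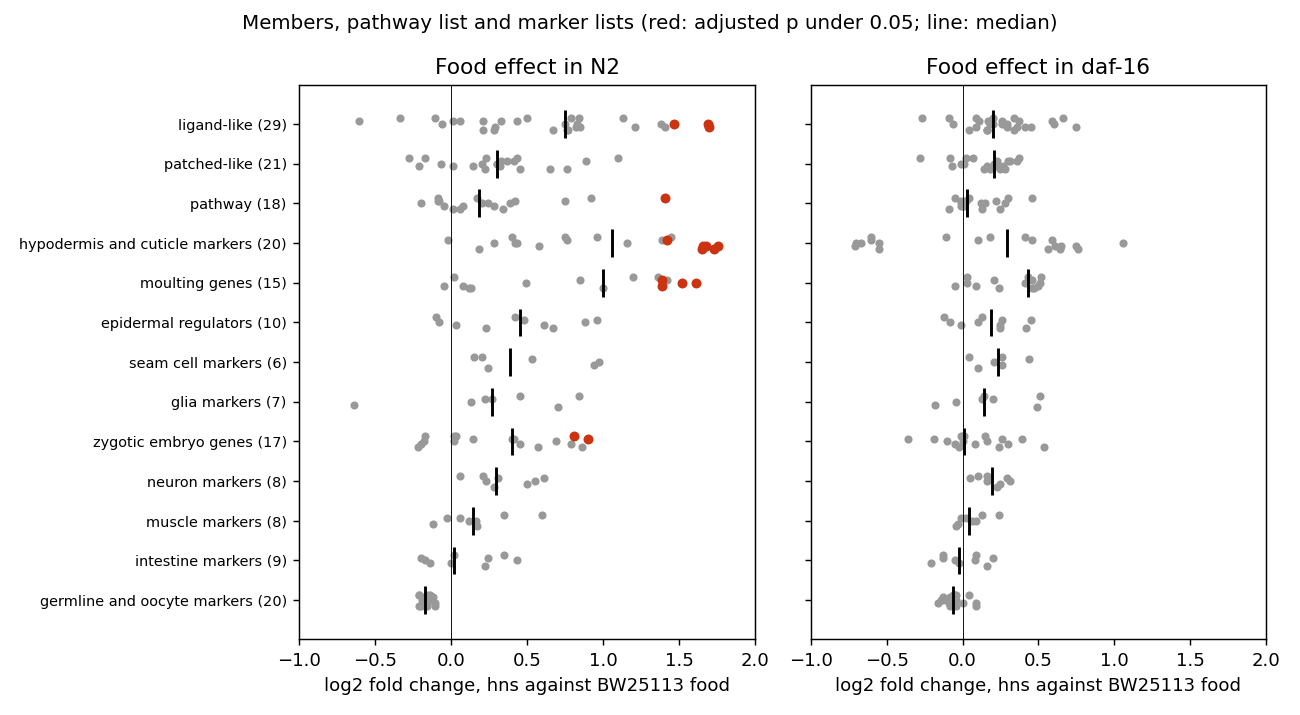
Log2 fold change on hns against BW25113 food of every tested gene of each list, in N2 (left) and daf-16 (right), with the number tested in brackets, the median as a line and genes with an adjusted p under 0.05 in red. In N2 the medians of ligand-like genes (0.75), hypodermis and cuticle markers (1.06) and moulting genes (1.00) lie farthest to the right, and in daf-16 no gene of these lists is red.

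In daf-16 mutants the same food change gave smaller values. With limma 0 of 50 members passed, beside 0.405% of all genes tested. At an unadjusted p under 0.05, 3 of 50 stood higher and 1 lower, beside 3.71% and 2.79% of all genes. The median log2 fold change was 0.20 over ligand-like genes (26 of 29 above 0) and 0.21 over patched-like genes (17 of 21), beside -0.01 and 48.4% above 0 over all genes tested. Both hns libraries exceeded both BW25113 libraries in 19 members and lay below both in 2, beside 19.3% and 14.7% of all genes. In N2 the medians of ligand-like and patched-like genes had been 0.75 and 0.30. Among the mutants, hypodermis and cuticle markers had a median of 0.30 (12 of 20 above 0) and moulting genes one of 0.43 (14 of 15), with 0 called. The hypodermis and cuticle markers split, from -0.71 to 1.06. Without overlap 9 of them stood higher and 8 lower, beside the same 19.3% and 14.7% of all genes. The part of both lists in the members' values was not tested.

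In the mutants wrt-10 stood at 30.5 and 23.2 FPKM on BW25113 food, against 41.2 and 31.1 FPKM on hns food. The nearest libraries of the 2 foods, at 30.5 and 31.1 FPKM, lay closer than the replicates of either food (0.41 ± 0.25, limma adjusted p = 0.84). The values of wrt-1 were 8.39 and 5.64 against 12.4 and 9.69 FPKM (0.60 ± 0.19, adjusted p = 0.61), and those of wrt-2 were 2.15 and 2.47 against 4.20 and 2.49 FPKM (0.36 ± 0.22, adjusted p = 0.84). The hns libraries exceeded the BW25113 libraries in each of the 3 genes, although for wrt-2 only by 2.49 against 2.47 FPKM.

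For grl-15 and grl-7 the mutant groups overlapped. The values of grl-15 were 14.6 and 9.25 against 15.8 and 11.6 FPKM (0.20 ± 0.24, limma adjusted p = 0.891) and those of grl-7 were 5.47 and 4.17 against 7.80 and 4.65 FPKM (0.29 ± 0.23, adjusted p = 0.855). The log2 fold change was 0.45 ± 0.28 for grl-16, 0.37 ± 0.27 for ptr-4, 0.30 ± 0.21 for ptr-18, 0.23 ± 0.13 for ptc-3 and 0.28 ± 0.13 for ptr-23 (limma adjusted p of 0.787 to 0.855). In hhat-1 it was 0.46 ± 0.20 (adjusted p = 0.78).

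The largest log2 fold changes in the mutants were those of grd-10, at 30.1 and 32.1 FPKM on BW25113 food and 56.3 and 49.7 FPKM on hns food (0.75 ± 0.53, limma adjusted p = 0.855), and grd-13, at 18.2 and 19.4 against 37 and 24.7 FPKM (0.66 ± 0.37, adjusted p = 0.831). The low gene grl-6 gave 0.375 and 0.345 against 1.04 and 1.05 FPKM (0.59 ± 0.19, adjusted p = 0.591). As only the mutant libraries on hns food reached 1 FPKM, it was tested only through the group where it stood highest. Replicates of these mutant groups lay closer together than the N2 replicates of grd-10 had.

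Some members stood apart between foods in both genotypes, which have no library in common. Both hns libraries exceeded both BW25113 libraries in N2 and again in the mutants for 15 of the 50 members, beside 11.1% of all genes tested. They were wrt-1, wrt-2, wrt-10, grd-13, grl-6 and grl-8, and the patched-like ptc-3, ptr-3, ptr-5, ptr-6, ptr-8, ptr-10, ptr-14, ptr-18 and ptr-23. Of these, grl-6 and ptr-3 were tested only through libraries on hns food. In the opposite direction ptr-24 was the 1 member that stood apart in both genotypes, beside 7.08% of all genes. It stood at 29.4 and 33.3 FPKM on BW25113 food and 25.4 and 25.8 FPKM on hns food in the mutants, with a log2 fold change of -0.28 ± 0.11 in each genotype (limma adjusted p = 0.735 in the mutants).

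Averaged over both genotypes, the food effect passed for wrt-1 (1.03, limma adjusted p = 0.027) and wrt-10 (1.06, adjusted p = 0.0487), beside 1.24% of all genes tested called higher. Among the genes around the pathway hhat-1 passed (0.94, adjusted p = 0.0384). The average shares its libraries with the single comparisons. Leaving out 1 library gave adjusted p of 0.0254 to 0.114 for wrt-1, of 0.0632 to 0.185 for wrt-10 and of 0.0704 to 0.145 for hhat-1. Of these values a single one passed, that of wrt-1 without replicate 1 of the mutants on BW25113 food.

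**Figure D5:**
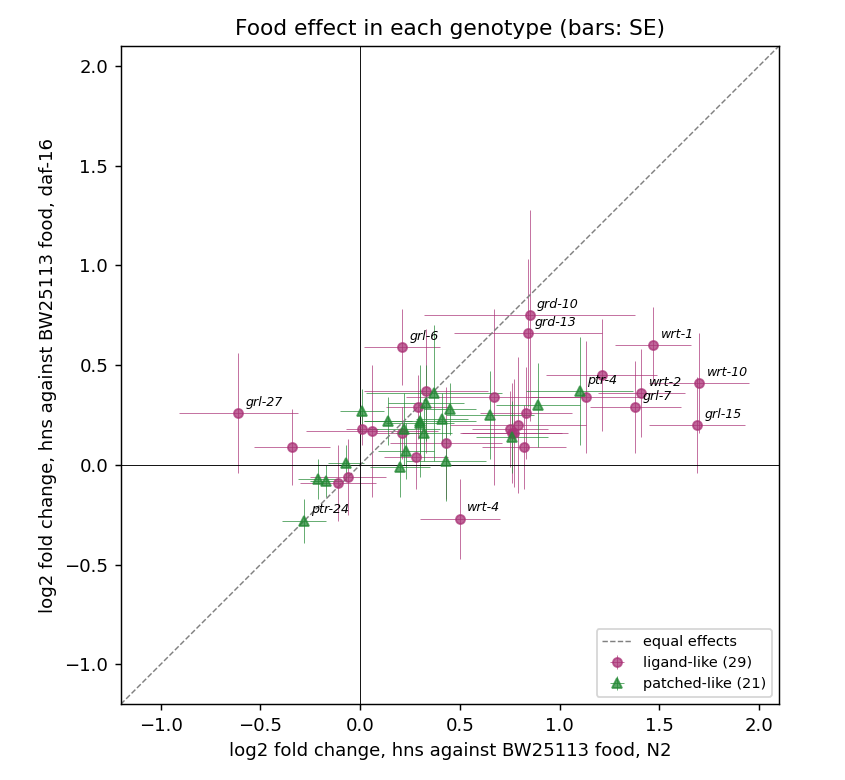
Log2 fold change on hns against BW25113 food in N2 (horizontal) and in daf-16 (vertical) for the 50 tested members, with SE bars; circles are ligand-like genes, triangles patched-like genes and the dashed line equal effects. Most ligand-like genes with large values in N2, such as wrt-10, grl-15 and grl-7, lie below the dashed line, and most patched-like genes lie near it.

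Loss of daf-16 left 0 of 50 members past the limma threshold on either food, beside 0.261% of all genes tested on BW25113 food and 0.233% on hns food. At an unadjusted p under 0.05, 3 of 50 stood higher and 1 lower in the mutant on BW25113 food, beside 6.55% and 2.57% of all genes. On hns food 0 stood higher and 2 lower, beside 4.62% and 3.22%. The medians lay on opposite sides of 0, at 0.15 on BW25113 food and at -0.12 on hns food. Both mutant libraries exceeded both N2 libraries in 22 members on BW25113 food and lay below both in 8, beside 23.5% and 16.3% of all genes tested. On hns food the counts were 7 and 18, beside 17.5% and 17.3%. The comparisons on the 2 foods share no library. Averaged over foods 0 members passed with limma, beside 0.831% of all genes tested, with 2 higher and 3 lower at an unadjusted p under 0.05, beside 8.54% and 4.41%.

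On BW25113 food wrt-10 stood at 30.5 and 23.2 FPKM in the mutant against 11.1 and 8.3 FPKM in N2, 2.77-fold apart and without overlap (1.38, limma adjusted p = 0.153). The gene grl-15 stood at 14.6 and 9.25 against 4.79 and 4.18 FPKM (1.21, adjusted p = 0.176). On hns food the genotypes overlapped in both genes, with log2 fold changes of 0.10 for wrt-10 and -0.28 for grl-15 (limma adjusted p = 0.968 and 0.834). N2 on BW25113 food was thus the group with the lowest mean of both genes, and the other 3 groups lay closer to each other. The hypodermis and cuticle markers had medians of 0.74 on BW25113 food and -0.21 on hns food in this genotype comparison, and the moulting genes 0.55 and 0.08, with 0 past the threshold. Their part in the members' values was not tested.

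The other direction was seen in grd-10, grd-13 and ptr-12. On hns food both mutant libraries lay below both N2 libraries for each of them, with means of 53.0 against 96.6 FPKM for grd-10, 30.8 against 50.5 FPKM for grd-13 and 1.98 against 3.87 FPKM for ptr-12. The N2 replicates of these genes differed by more than 1.5 times.

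Whether the food effect differed between the genotypes was tested as the food effect in N2 minus that in daf-16. With limma 0 of 50 members passed, beside 0.0961% of all genes tested. At an unadjusted p under 0.05, 7 ligand-like and 0 patched-like genes stood above 0, beside 2.9% of all genes. The difference was 1.48 for grl-15 (95% interval 0.65 to 2.32, adjusted p = 0.941), 1.29 for wrt-10 (0.43 to 2.14), 1.10 for grl-7 (0.32 to 1.88), 1.04 for wrt-2 (0.28 to 1.81) and 0.87 for wrt-1 (0.20 to 1.53), each of the last 4 with an adjusted p of 1. The difference was above 0 in 21 of 29 ligand-like genes (median 0.33) and in 15 of 21 patched-like genes (median 0.09), beside 52.2% of all genes tested. For hhat-1 it was 0.95 (adjusted p = 1), and for hypodermis and cuticle markers the median was 0.99. In 1 member, wrt-4, the foods separated without overlap in opposite directions in the genotypes, beside 1.78% of all genes tested. In 8 members the mutant stood higher on BW25113 food and lower on hns food, both without overlap, beside 2.32% of all genes tested.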

How the data were processed

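Per the labels' protocols, whole-worm RNA went into Lexogen SENSE mRNA libraries. The authors deposited 1 table with an FPKM for each gene in each of 8 libraries. The submitters' processing notes name ce10 as the build and TopHat2 2.0.11 and Cufflinks 2.2.1 as tools. The sources used here do not give annotation, strand setting or filters. Depth was estimated from the steps between low FPKM of coding genes with 1 transcript. At the best match 51.7% to 54.6% of these values were within 0.15 fragments of a whole number (chance gives 30.0%). Depths are therefore rough, and counts were not tested.

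The 14564 genes that reached 1 FPKM in 2 or more libraries were kept, and log2(FPKM + 1), with a pseudocount of 1, was fitted with limma-trend (limma 3.58.1 under R 4.3.3), using 1 mean per group over all 8 libraries, which gave 4 residual and 2.32 prior degrees of freedom. P-values were two-sided and adjusted by the Benjamini-Hochberg method over all genes tested, with a threshold of 0.05. Fold changes of low genes are understated on this scale, while plain folds are ratios of mean FPKM. The fit was tested on simulated data with independent noise and planted changes larger than any measured in a member. That test does not show how well changes of the members' size are detected. Members and gene lists were chosen with earlier results of these data known. Named were daf-16, wrt-10, members past the threshold or with a group mean of at least 5 FPKM, and the 6 largest differences without overlap per food comparison. Named too were hhat-1, which passed, and qua-1, hog-1, che-14, ptd-2, daf-6 and tra-1. Others, such as ptr-4, ptr-18, wrt-4, wrt-6, grl-1, grl-8, grl-12, grl-22, grl-27, ptr-15 and the genes of lists, were named after their values were seen. Names, neighbours and lengths came from WBcel235. As its build is not that of the files, coordinates were left out. Fragments shared by near-identical copies could not be checked. Alternatives were other pseudocounts, no filter, quantile normalization, a replicate block, robust estimation, fewer libraries, and leaving out each library.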

Additional observations from a re-analysis of the deposited data

Results flagged for a closer look

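For some members the groups separated in opposite directions. In wrt-4, a warthog gene, both hns libraries exceeded both BW25113 libraries in N2 (0.957 and 1.09 against 0.468 and 0.386 FPKM) and lay below both in daf-16 (0.756 and 0.662 against 1.35 and 0.794 FPKM). The difference of the food effects was 0.77 (limma adjusted p = 1). Such opposite food effects were seen in 1 of 50 tested members, a share near the 1.78% of all genes tested.

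Both mutant libraries exceeded both N2 libraries on BW25113 food, and lay below both on hns food, for wrt-4 and for 7 other tested members. The difference of effects was 0.87 for wrt-1, 1.04 for wrt-2, 0.57 for wrt-6, 0.73 for grl-1, 1.10 for grl-7, 0.62 for ptr-15 and 0.59 for ptr-18, each with a limma adjusted p of 1. Over all genes tested 2.32% had this pattern. The exons of ptr-15 share 30 bases with mec-1 on the opposite strand, and those of wrt-2 share 43 with pccb-1.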

How the results depend on the processing

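Of the 15 alternatives, those that changed how many members limma called acted as follows. For food in N2, where 3 were called, 0 were called without a filter or with the compared libraries alone, 1 under quantile normalization (wrt-1), 5 with robust estimation and 0 to 2 with 1 library left out. For food averaged, where 2 were called, 0 were called without a filter, 1 under quantile normalization, 4 with robust estimation and 0 to 1 with 1 library left out. With the replicate number as a block, 8 were called for food in N2 and 9 for food averaged, 1 (wrt-10) for genotype on BW25113 food (adjusted p = 0.00933), 1 (wrt-10) for the difference of food effects (adjusted p = 0.0445) and 2 (grd-4 and wrt-10) for genotype averaged, where 0 had been called in the last 3. Replicate differences correlated at r = 0.161 between the N2 groups and 0.022 to 0.129 between the other groups of the same food or genotype. The labels do not tie numbers to a batch, so the samples share only a number. No alternative called a member for food in daf-16 or genotype on hns food. The share of all genes tested that each alternative called is not given here. A rise in members called can therefore not be set beside a rise over all genes. The cause of these changes was not tested.

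Some small differences turned direction. For food in N2, quantile normalization gave -0.05 for grd-4, -0.12 for ptr-8, -0.11 for ptr-21, -0.04 for wrt-5 and -0.07 for che-14. With 1 library left out, values ran from -0.35 to 0.13 for grd-3, -0.30 to 0.41 for grd-4, -0.33 to 0.21 for grd-5, -0.11 to 0.85 for ptr-12, -0.11 to 0.13 for ptr-21 and -0.08 to 0.09 for wrt-5. For food in daf-16 they ran from -0.10 to 0.51 for grl-15 and -0.03 to 0.60 for grl-7, and for wrt-10 by genotype on hns food from -0.18 to 0.37. A lone library was assumed to vary like the other groups. With 2 libraries a group and most members under 10 FPKM, differences short of the threshold were not detectable here, not shown absent.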
